A study of Danio rerio with 16 samples.

Results

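The Hox genes of zebrafish are described here: 49 of the 36109 genes in the deposited count table, chosen as every gene whose symbol is hox, a cluster letter from a to d, a paralog number and a copy letter. Hox genes encode homeodomain transcription factors that give cells their position along the head-to-tail axis, and they lie side by side in clusters. Genes at one end of a cluster, with low paralog numbers, act in the hindbrain and pharyngeal arches, those in the middle in the trunk, and those with the highest numbers in the tail and the tips of the fins. In teleosts a genome duplication left several clusters with an a and a b copy, and retinoic acid, Cdx factors and Polycomb proteins are known to set where each gene is on. The 49 members fell into 7 clusters: 7 genes in hoxaa, 5 in hoxab, 11 in hoxba, 4 in hoxbb, 11 in hoxca, 4 in hoxcb and 7 in hoxda. By paralog number, 10 belonged to groups 1 to 3, 16 to groups 4 to 8 and 23 to groups 9 to 13. All 49 passed the filter on low counts. Per library, the member with the least signal, hoxa4a, had 14 to 49 counts, and hoxb3a, the member with the most, had 3658 to 6457.

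The series measured bulk RNA in 16 libraries of embryos at 24 and 48 hours post fertilisation (hpf), and its title concerns the mobilisation of yolk lipid. At each age, 4 libraries came from wild-type siblings (sib24 and sib48) and 4 from mutants in which both lipf and pla2g15 had been knocked out by CRISPR/Cas9 (mut24 and mut48). No other allele or agent is named. Neither the labels nor the series text used here name the alleles or say how many embryos and clutches stand behind a library. The p-values therefore measure the spread between libraries alone, which could be technical. The tissue is labelled body and the series text calls the samples whole embryos. All 10 head markers examined, such as the forebrain gene foxg1a and the midbrain gene otx2b, were measured, with a summed level of 185 to 290 CPM, which are counts per 1e6 counts of a library.

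Library depth lay between 35.9 and 50.5 in units of 1e6 counts. The targeted gene lipf, a lipase gene, had 8.84 to 25.2 CPM in sib24 and 0.58 to 2.34 CPM in mut24. At 48 hpf it had 17.0 to 31.6 CPM in siblings and 2.03 to 3.03 CPM in mutants. The genotypes stood apart at both ages, at log2 fold changes of -3.22 (edgeR adjusted p = 0.00119) and -3.24 (edgeR adjusted p = 4.31e-05). For pla2g15, a lysosomal phospholipase gene, RNA was at log2 fold changes of -0.40 and -0.50, neither of them called. Libraries at 24 hpf differed in RNA of the yolk syncytial layer, the cell layer around the yolk. The mean log2 CPM of 17 of its markers was 2.07 to 6.32 in sib24 and 1.42 to 6.44 in mut24, with 4 libraries lowest (replicates 1 and 4 of sib24, replicates 2 and 4 of mut24). In sib48 it was 6.15 to 6.79 and in mut48, without overlap, 5.38 to 5.88, so that at 48 hpf it moved with genotype, and a fit with the score as a covariate is given beside the results it touches. A fit without those 4 libraries, all of them at 24 hpf, is given beside the 24 hpf and age results. It kept every library at 48 hpf, but its filter, scaling and estimate of spread changed. At 48 hpf it called 12 Hox genes higher and 0 lower in mutants, where 903 and 661 of 25082 tested genes were called. Both fits were chosen after seeing the data.

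Levels are given in CPM, scaled by TMM factors. CPM is not per length, so levels are compared between libraries and not between genes, and a sum over genes weights long and abundant genes more. Calls rest on edgeR's quasi-likelihood test, with p adjusted by Benjamini-Hochberg over all 24300 tested genes and a limit of 0.05. In whole-embryo RNA, a change in the number of cells that express a gene and a change in RNA per cell cannot be told apart. No source used here says how reads shared by near-identical copies were assigned, so values of close paralogs are uncertain to that extent.

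From 24 to 48 hpf the Hox genes went in both directions, and genes of 1 paralog group or 1 cluster often parted. In siblings 14 members rose, against 34.1% of all tested genes, 12 fell, against 29.2%, and 23 were not called. In mutants 18 rose, against a background of 34.1%, 6 fell, against 30.4%, and 25 were not called. The same 14 members rose in both genotypes and the same 6 fell in both. A further 4 were called higher in mutants alone and 6 called lower in siblings alone, and the test of that difference, the interaction, is given further on. For calls in both genotypes or in 1 alone no share of all tested genes is given, so these counts are a description. Without the 4 libraries lowest in yolk markers 10 members rose and 17 fell in siblings, and 16 rose and 5 fell in mutants. Of 25082 tested genes in that fit, 6836 rose and 6834 fell in siblings, and 7587 rose and 6842 fell in mutants. With the yolk score as a covariate the counts were 12 and 12 in siblings and 16 and 6 in mutants. Those of all 24300 tested genes were then 7625 and 6736 in siblings and 7789 and 7165 in mutants. Median log2 fold changes with age were -0.15 in siblings and 0.14 in mutants, where those of all tested genes were 0.06 and 0.05.

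**Figure D1:**
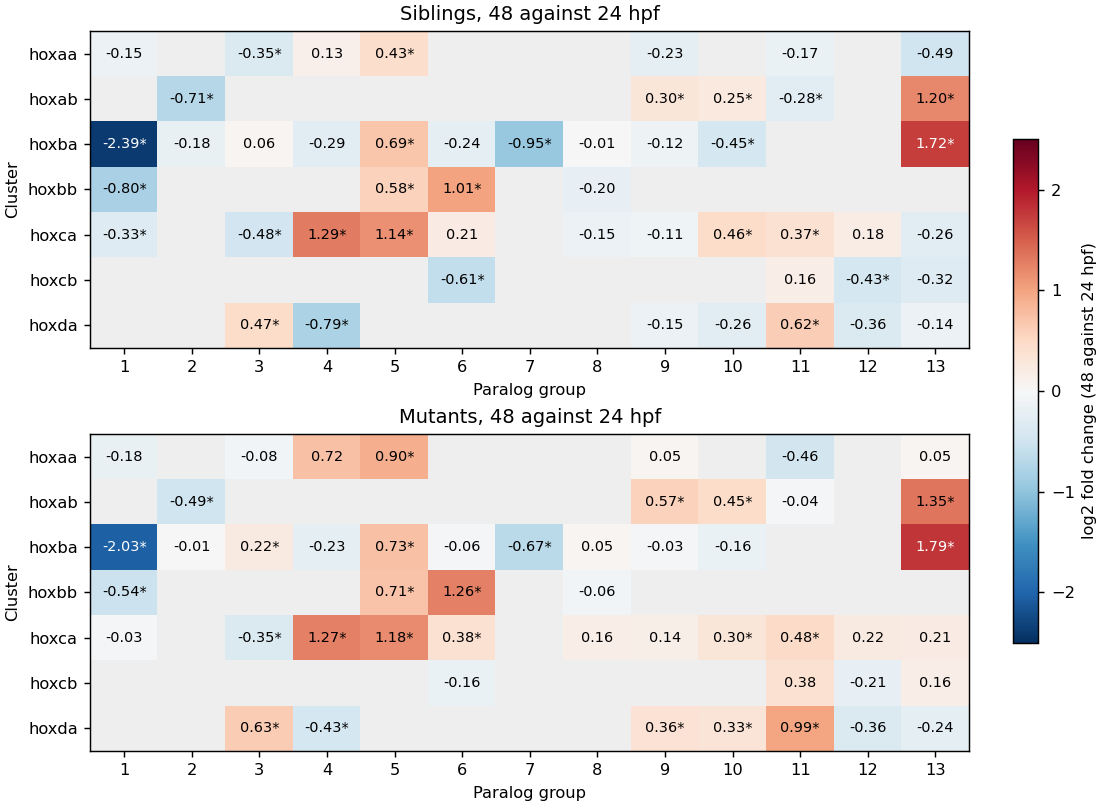
Log2 fold change from 24 to 48 hpf of each of the 49 Hox genes, laid out by cluster (rows) and paralog group (columns), in siblings (top) and mutants (bottom), with 4 libraries per group. Red is higher and blue lower at 48 hpf, an asterisk marks an adjusted p under 0.05 and grey marks places without a gene; the 4 genes of group 5 rose in both genotypes and hoxb1a fell most, by 2.39 in siblings.

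At the anterior end more genes fell than rose. Of the 10 genes of groups 1 to 3, 1 rose and 6 fell in siblings, and 2 rose and 4 fell in mutants. The shares of all tested genes that rose and fell were 34.1% and 29.2% in siblings, and 34.1% and 30.4% in mutants. The largest fall was that of hoxb1a, which sets the identity of the fourth hindbrain segment and its facial motor neurons. Its level was 4.53, 3.32, 4.24 and 3.70 CPM in the sib24 libraries and 0.39, 0.63, 0.86 and 1.14 CPM in the sib48 libraries. Every library at 48 hpf lay below every library at 24 hpf, a 5.23-fold fall (log2 fold change -2.39, SE 0.33, edgeR adjusted p = 4.8e-06). The fall in mutants was 4.09-fold (log2 fold change -2.03, edgeR adjusted p = 1.79e-05). Its copy hoxb1b, which acts in the early neural plate where the hindbrain is segmented, fell less. It went from 52.8, 59.5, 58.9 and 56.3 CPM in sib24 to 31.3, 37.9, 31.7 and 29.5 CPM in sib48, again without overlap (log2 fold change -0.80, SE 0.10, edgeR adjusted p = 1.06e-06).

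In group 2, hoxa2b, which gives the second pharyngeal arch its identity, fell from 19.1, 18.1, 15.8 and 19.5 CPM in sib24 to 8.04, 12.2, 11.6 and 12.5 CPM in sib48. The ages did not overlap (log2 fold change -0.71, SE 0.15, edgeR adjusted p = 0.000495). Group 3 was split. In siblings hoxd3a rose (log2 fold change 0.47, edgeR adjusted p = 1.75e-05) while hoxa3a and hoxc3a fell (-0.35 and -0.48), and hoxb3a was not called at 0.06. In mutants hoxd3a rose by 0.63, hoxc3a fell by 0.35, and hoxb3a was called higher at 0.22 (edgeR adjusted p = 0.0167).

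Of the 16 genes of groups 4 to 8, 6 rose and 3 fell in siblings, and 7 rose and 2 fell in mutants. The shares of all tested genes were 34.1% and 29.2% in siblings, and 34.1% and 30.4% in mutants. In siblings the number that rose was thus near the background. Group 5, singled out for its values, held the most even rise. All 4 members of group 5 rose in both genotypes, where 34.1% of all tested genes rose in each. The rises were 0.43 to 1.14 on the log2 scale in siblings and 0.71 to 1.18 in mutants. In zebrafish hoxb5b limits the pool of heart progenitors downstream of retinoic acid, and it rose by 0.58 in siblings (edgeR adjusted p = 0.000466). The largest of the 4 rises was that of hoxc5a, from 6.14, 4.98, 5.78 and 4.87 CPM in sib24 to 11.04, 13.7, 12.4 and 10.8 CPM in sib48. Its neighbour in the hoxca cluster, hoxc4a, went from 11.3, 10.3, 12.4 and 11.05 CPM to 25.8, 28.9, 26.1 and 29.7 CPM. Neither gene's ages overlapped, and the log2 fold changes were 1.14 for hoxc5a (SE 0.12, edgeR adjusted p = 1.59e-07) and 1.29 for hoxc4a (SE 0.10, edgeR adjusted p = 4.77e-09).

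Other genes of groups 4, 6 and 7 went the other way. The fall of hoxd4a, a gene of the caudal hindbrain and spinal cord, was 0.79 on the log2 scale in siblings (edgeR adjusted p = 0.000174) and 0.43 in mutants, where the call was lost without replicate 3 of mut48 (edgeR adjusted p = 0.0610), without the 4 libraries lowest in yolk markers (0.115) and with the yolk score as a covariate (0.0704). In group 6, hoxb6b of the hoxbb cluster rose from 13.9, 14.4, 10.7 and 12.96 CPM in sib24 to 24.8, 28.4, 25.5 and 25.8 CPM in sib48 (log2 fold change 1.01, SE 0.10, edgeR adjusted p = 4.79e-08), whereas hoxc6b fell by 0.61 on that scale. The 1 member of group 7, hoxb7a, a gene of the trunk, went from 20.5, 21.5, 21.5 and 22.4 CPM to 10.9, 10.6, 11.6 and 11.3 CPM. Its ages were far apart compared with the spread between libraries (log2 fold change -0.95, SE 0.08, edgeR adjusted p = 1.82e-08). None of the 3 genes of group 8 was called with age in either genotype in the main fit. The one with the smallest p, hoxc8a, stood at 48.7, 53.5, 53.2 and 56.4 CPM in sib24 and 47.3, 51.8, 46.5 and 45.1 CPM in sib48, with overlap. Its fall in siblings was called in 4 of 15 alternative fits, among them RLE scaling (edgeR adjusted p = 0.0400) and DESeq2 (DESeq2 adjusted p = 0.0398).

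At the posterior end 7 of the 23 genes of groups 9 to 13 rose and 3 fell in siblings, and 9 rose and 0 fell in mutants. Of all tested genes 34.1% rose and 29.2% fell in siblings, and 34.1% rose and 30.4% fell in mutants. The numbers that rose were thus near the background. The largest rise of any member was that of hoxb13a, whose mouse counterpart limits the length of the tail. It went from 2.12, 2.93, 3.48 and 2.00 CPM in sib24 to 8.77, 7.34, 8.60 and 10.04 CPM in sib48. The ages did not overlap, and the rise was 3.3-fold (log2 fold change 1.72, SE 0.29, edgeR adjusted p = 4.32e-05) in siblings and 3.45-fold in mutants. The fin gene hoxa13b rose as well, from 2.30, 2.54, 2.71 and 2.45 CPM to 3.83, 6.99, 6.85 and 5.36 CPM (log2 fold change 1.2, SE 0.32, edgeR adjusted p = 0.00312). The other 4 genes of group 13 were not called, with log2 fold changes of -0.49 to -0.14 in siblings. In the groups between, hoxd11a rose by 0.62 in siblings and 0.99 in mutants, and hoxa9b by 0.30 and 0.57. The call of hoxa9b in siblings was lost without the libraries lowest in yolk markers (edgeR adjusted p = 0.119). In siblings hoxb10a fell by 0.45, and in mutants it was not called at -0.16. The fall of hoxc12b in siblings was 0.43 (edgeR adjusted p = 0.0463), and it lost its call without replicate 2 or 3 of sib24 or without replicate 1, 3 or 4 of sib48 (edgeR adjusted p of 0.0614 to 0.178).

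Markers of the tissues that carry Hox RNA also differed between the ages. All 11 tested markers of the tail bud, where posterior Hox genes are first switched on, fell in siblings, and their summed level went from 122 to 172 CPM in sib24 to 24.4 to 29.2 CPM in sib48. Of 16 markers of spinal and hindbrain neurons, 12 rose and 2 fell, and of 11 markers of the fin bud and fin fold, 6 rose and 2 fell. Of all tested genes 34.1% rose and 29.2% fell in siblings. The part of these tissues in the changes of Hox genes with age was not tested.

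The balance between duplicate copies of 1 ancestral gene differed between the ages in some pairs. In 5 of the 11 pairs, the ratio of the a copy to the b copy at 24 hpf did not overlap that at 48 hpf in any of the 16 libraries. The levels of single genes stood apart in that way in 43.6% of all tested genes, so the number of pairs is near that share and the ratios are given as a description. For hoxb6a over hoxb6b the mean log2 ratio was -0.09 ± 0.16 (SD, n = 4) in sib24 and -1.38 ± 0.34 in sib48. For hoxa13a over hoxa13b it went from 0.65 ± 0.33 to -0.97 ± 0.56, and for hoxb1a over hoxb1b from -3.86 ± 0.26 to -5.53 ± 0.73. The pair hoxa9a and hoxa9b went from 0.01 ± 0.20 to -0.52 ± 0.03, also towards the b copy. The pair hoxc6a and hoxc6b went towards the a copy, from -1.42 ± 0.18 to -0.60 ± 0.21. In mutants the 5 shifts ran from -1.61 for the hoxb1 pair to 0.54 for the hoxc6 pair. The 5 pairs were picked over the libraries of both genotypes, so the shared direction was fixed by that choice. These ratios are of CPM and not per length, so only their change is read.

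**Figure D2:**
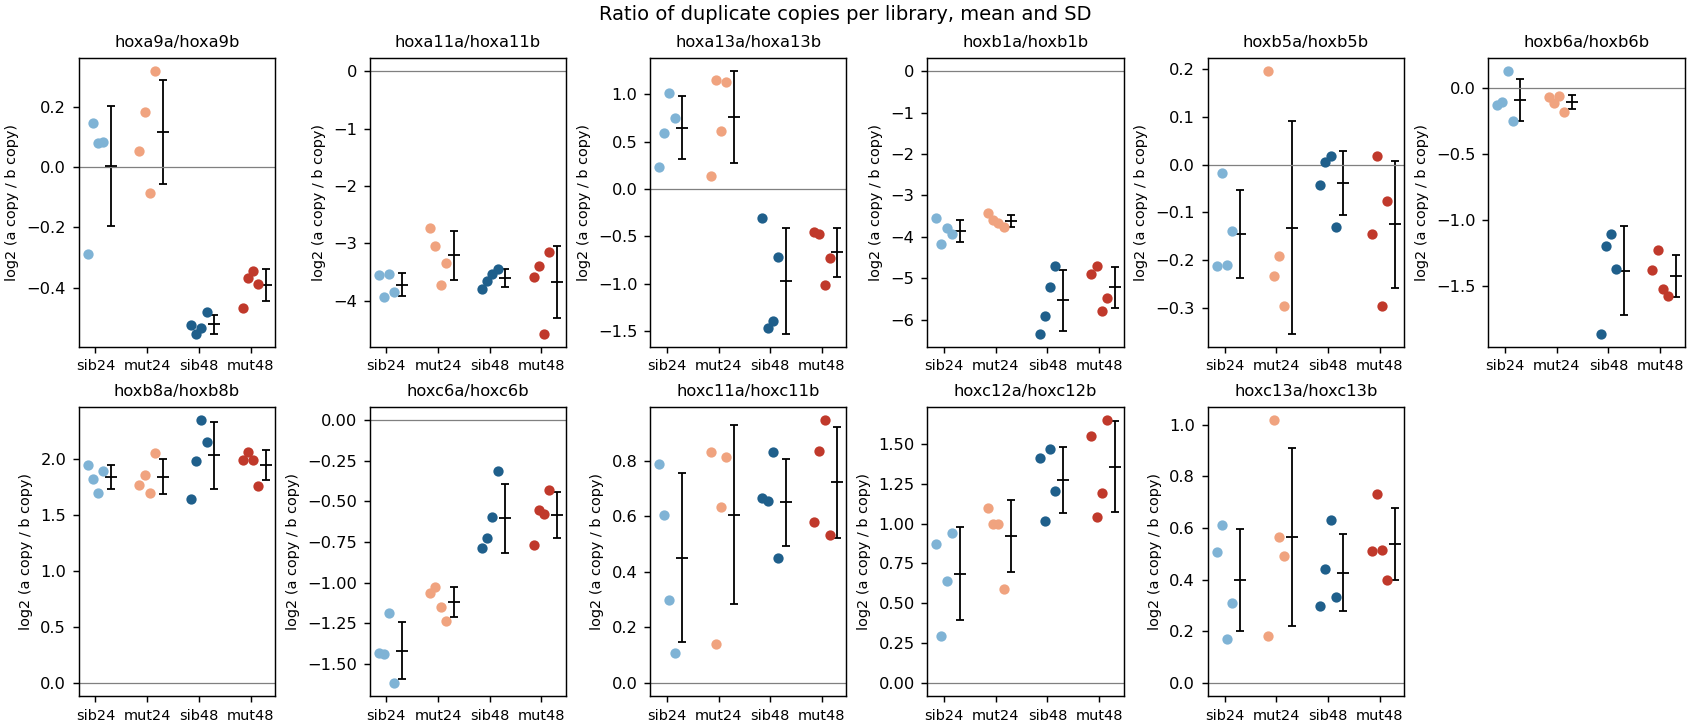
Log2 ratio of the a copy to the b copy of 11 duplicate pairs, 1 point per library, with the mean and SD of each group of 4 beside it; the line at 0 marks equal CPM. The vertical scale differs between panels; for the hoxa9, hoxa13, hoxb1, hoxb6 and hoxc6 pairs the 24 and 48 hpf libraries do not overlap.

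Between genotypes at 24 hpf no Hox gene was called in either direction, where 0.391% of all tested genes were called higher and 0.44% lower in mutants. DESeq2 also called 0, where it called 373 of 24300 tested genes higher and 449 lower. The median log2 fold change was 0.05, that of all tested genes was -0.003, and 28 of 49 members were above 0, against 49.1% of all tested genes. Without the 4 libraries lowest in yolk markers the median was -0.05 and 21 members were above 0. At an unadjusted p under 0.05 there were 3 members (hoxb4a, hoxb8a and hoxb8b), where 13.7% of all tested genes reached that limit. The trunk gene hoxb8a had 57.2, 53.1, 45.1 and 56.1 CPM in sib24 and 59.3, 67.4, 59.0 and 61.9 CPM in mut24, and its copy hoxb8b 14.8, 15.03, 13.9 and 15.1 CPM and 17.4, 18.6, 18.2 and 14.9 CPM. Groups overlapped for hoxb8b and not for hoxb8a, and the log2 fold changes were 0.23 for both (edgeR adjusted p = 0.334 and 0.275). For hoxb4a the log2 fold change was 0.26 (edgeR adjusted p = 0.362).

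Genes of group 13 varied widely between libraries at 24 hpf. Their summed level was 23.5, 31.5, 38.8 and 28.9 CPM in sib24 and 37.5, 17.4, 19.0 and 30.6 CPM in mut24, a wide overlap. The summed level of the 11 tail bud markers was 122, 172, 149 and 172 CPM in sib24 and 170, 123, 114 and 159 CPM in mut24. In mutants the same libraries, replicates 1 and 4, were high in both sums, and the part of the markers in the spread was not tested. At 48 hpf the sums of group 13 lay within 33.1 to 36.9 CPM in sib48 and 35.6 to 38.5 CPM in mut48.

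At 48 hpf 11 of the 49 Hox genes were higher in mutants and 0 were lower, where 2.84% of all tested genes were called higher and 4.59% lower. The differences were small, from 1.21-fold to 1.41-fold. The log2 fold change was above 0 in 43 of the 49 members, against 44.8% of all tested genes, and the median was 0.27 against -0.04. All 27 members with an unadjusted p under 0.05 were higher in mutants (8.36% of tested genes reached that limit as higher and 13.7% as lower). The 4 mutant libraries lay above all 4 sibling libraries in 15 members, where that held for 5.7% of tested genes, and below them in 0, against 8.46%. The number called changed with the library left out. It was 3 without replicate 4 of sib48 or without replicate 2 of mut48, and 4 without replicate 2 or 3 of sib48. It was 6 without replicate 4 of mut48 and 7 without any 1 of the other 3, with 0 called lower each time. Calls over all tested genes changed in these fits as well, to 353 to 740 higher and 483 to 1241 lower, from 691 and 1115. Across these fits 43 to 45 members were above 0.

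**Figure D3:**
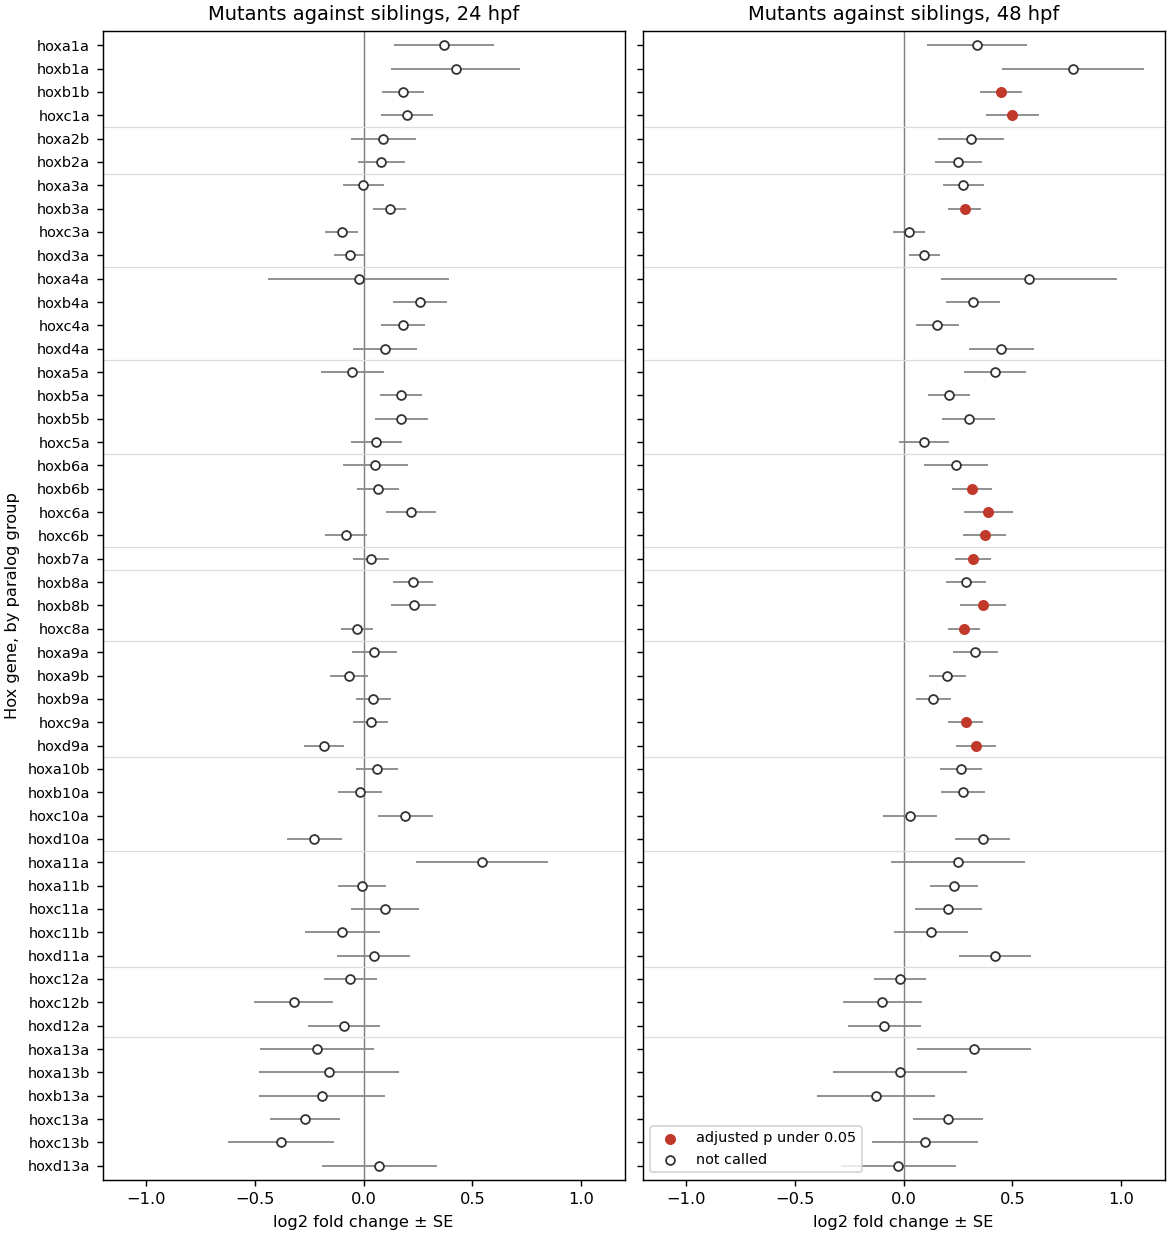
Log2 fold change of mutants against siblings with its standard error for each of the 49 Hox genes, ordered by paralog group from top to bottom, at 24 hpf (left) and 48 hpf (right), 4 libraries per group. Filled points mark an adjusted p under 0.05; at 48 hpf there are 11 of them, and the 40 genes of groups 1 to 11 all lie to the right of 0.

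The values are given next by paralog number and by cluster. The log2 fold change at 48 hpf was above 0 in all 10 members of groups 1 to 3, all 16 of groups 4 to 8 and 17 of 23 of groups 9 to 13, with medians of 0.30, 0.32 and 0.20. The 6 members not above 0 all belonged to groups 12 and 13, which hold 9 members with a median of -0.02 and no call. Groups 12 and 13 were set apart after these values were seen, so that their contrast with the 40 members of groups 1 to 11 is a description. Calls were made for 3 of 10 genes of groups 1 to 3, 6 of 16 of groups 4 to 8 and 2 of 23 of groups 9 to 13. By cluster they were 0 of 7 in hoxaa, 0 of 5 in hoxab, 2 of 11 in hoxba, 3 of 4 in hoxbb, 4 of 11 in hoxca, 1 of 4 in hoxcb and 1 of 7 in hoxda. No test compared paralog groups or clusters with each other.

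Of the hindbrain genes, hoxb1b was 1.36-fold higher in mutants. Its level was 31.3, 37.9, 31.7 and 29.5 CPM in sib48 and 46.6, 52.8, 37.2 and 41.1 CPM in mut48. Replicate 3 of mut48 lay just below the highest sibling library, and the other mutant libraries lay above all siblings (log2 fold change 0.45, SE 0.10, edgeR adjusted p = 0.0103). This was the 1 member called under each of 15 alternative fits, with a highest adjusted p of 0.04. The group 1 gene hoxc1a had 41.7, 45.3, 41.9 and 35.3 CPM in sib48 and 56.4, 62.3, 53.5 and 60.2 CPM in mut48, without overlap (log2 fold change 0.50, SE 0.12, edgeR adjusted p = 0.0199). It lost its call without replicate 4 of sib48 or replicate 2 of mut48 (edgeR adjusted p = 0.0733 and 0.0584). The third was hoxb3a, a gene of the caudal hindbrain, at 104, 121, 120 and 111 CPM in sib48 and 145, 135, 137 and 137 CPM in mut48, also without overlap (log2 fold change 0.28, SE 0.08, edgeR adjusted p = 0.0320).

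Among the trunk genes 3 of the 4 members of group 6 were called. The levels of hoxc6b were 18.8, 17.2, 16.2 and 17.1 CPM in sib48 and 22.9, 20.6, 24.7 and 21.5 CPM in mut48, and those of hoxb6b were 24.8, 28.4, 25.5 and 25.8 CPM and 31.2, 32.2, 32.8 and 33.7 CPM. Neither gene's groups overlapped (log2 fold changes 0.37 and 0.31, SE 0.10 and 0.09, edgeR adjusted p = 0.0292 and 0.0487). The third, hoxc6a, overlapped through replicate 4 of sib48, with 10.9, 10.4, 10.7 and 13.7 CPM in sib48 and 13.5, 14, 16.5 and 15.95 CPM in mut48 (log2 fold change 0.39, SE 0.11, edgeR adjusted p = 0.0461).

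The group 7 gene hoxb7a had 10.9, 10.6, 11.6 and 11.3 CPM in sib48 and 12.7, 13.8, 14.8 and 14.1 CPM in mut48 (log2 fold change 0.32, SE 0.08, edgeR adjusted p = 0.0282). In group 8, hoxb8b had 14.4, 13.7, 10.8 and 12.5 CPM in sib48 and 17.1, 16.9, 14.5 and 17.5 CPM in mut48 (log2 fold change 0.36, SE 0.10, edgeR adjusted p = 0.0420). Its paralog hoxc8a had 47.3, 51.8, 46.5 and 45.1 CPM in sib48 and 54.0, 53.5, 62.6 and 61.4 CPM in mut48 (log2 fold change 0.28, SE 0.07, edgeR adjusted p = 0.0292). In these 3 trunk genes every mutant library lay above every sibling library. Further back, hoxc9a, whose mouse counterpart sets thoracic motor neuron identity, had 20.2, 20.6, 17.4 and 20.3 CPM in sib48 and 25.1, 26.1, 22.2 and 22.3 CPM in mut48 (log2 fold change 0.29, SE 0.08, edgeR adjusted p = 0.0399). The other group 9 gene called, hoxd9a, had 17.9, 17.8, 17.3 and 21.9 CPM in sib48 and 22.4, 23.8, 21.99 and 26.3 CPM in mut48 (log2 fold change 0.33, SE 0.09, edgeR adjusted p = 0.0347). Neither of the group 9 genes overlapped between genotypes. Apart from hoxb1b, each of the 11 lost its call in 2 to 11 of the 15 alternative fits, with hoxb6b losing it most often. The call of hoxb6b was lost whichever library at 48 hpf was left out (edgeR adjusted p of 0.0629 to 0.114).

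**Figure D4:**
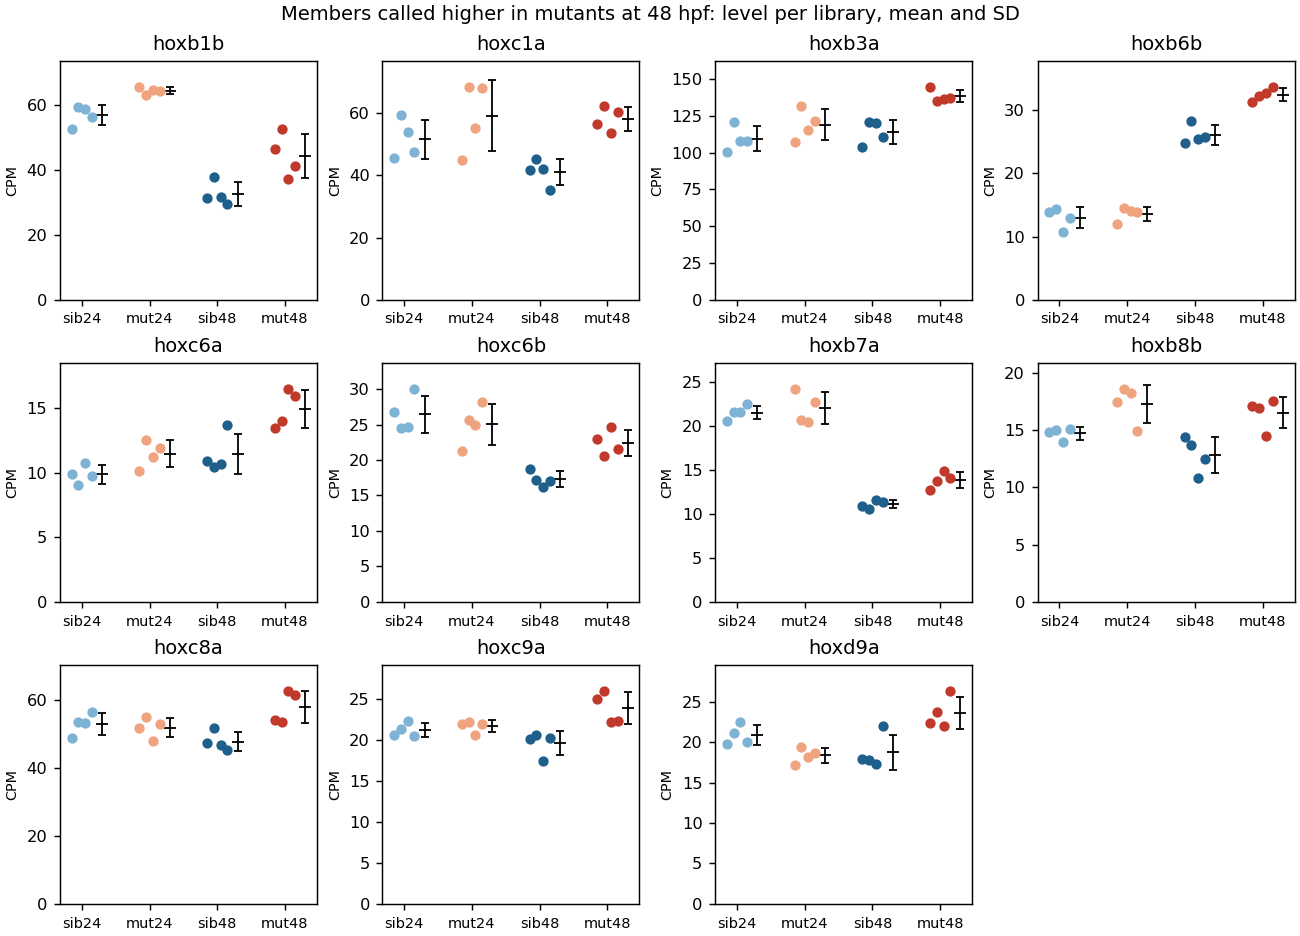
CPM in each of the 16 libraries of the 11 Hox genes called higher in mutants at 48 hpf, with the mean and SD of each group of 4 beside the points; each vertical axis starts at 0. At 48 hpf the mutant and sibling points overlap only for hoxb1b and hoxc6a, and in no gene was the 24 hpf difference called.

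A further 16 members reached an unadjusted p under 0.05 at 48 hpf without a call. They were hoxb1a, hoxb2a, hoxa3a, hoxb4a, hoxd4a, hoxa5a, hoxb5a, hoxb5b, hoxb8a, hoxa9a, hoxa9b, hoxa10b, hoxb10a, hoxd10a, hoxa11b and hoxd11a. The highest log2 fold change among them was that of hoxb1a, at 0.78 (SE 0.33, edgeR adjusted p = 0.163), with 0.39, 0.63, 0.86 and 1.14 CPM in sib48 and 1.56, 2.02, 0.68 and 0.93 CPM in mut48. Its mutant replicates 3 and 4 lay within the sibling range. The smallest p was that of hoxa9a, with 15.3, 15.5, 14.5 and 16.1 CPM in sib48 and 19.1, 20.4, 18.8 and 18.8 CPM in mut48, without overlap (log2 fold change 0.33, SE 0.10, edgeR adjusted p = 0.0642). The other 14 had log2 fold changes of 0.20 to 0.45. In contrast, hoxb13a and hoxa13b, which had the largest rise with age among posterior genes, stood at log2 fold changes of -0.13 and -0.02 between genotypes (edgeR adjusted p = 0.849 and 0.986).

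Summed over all members, the Hox level was 910, 1012, 980 and 980 CPM in sib48 and 1192, 1194, 1098 and 1144 CPM in mut48. The genotypes did not overlap at 48 hpf, with means of 970 ± 42.9 and 1157 ± 45.3 CPM (SD, n = 4). At 24 hpf they overlapped, at 971 to 1046 CPM in sib24 and 1001 to 1108 CPM in mut24. Without any scaling factor, Hox genes took 0.0948 to 0.103% of all counts in sib48 and 0.114 to 0.125% in mut48. The sum of groups 1 to 3 lay between 321 and 361 CPM in sib48 and between 381 and 436 CPM in mut48. The sum of groups 4 to 8 lay between 294 and 340 CPM in sib48 and between 385 and 393 CPM in mut48, and that of groups 9 to 13 between 296 and 320 CPM and between 333 and 369 CPM. In each of these classes the genotypes lay apart. The sum of groups 12 and 13, part of the last class, was 54.8 to 61.3 CPM in siblings and 57.7 to 61.7 CPM in mutants, with overlap.

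**Figure D5:**
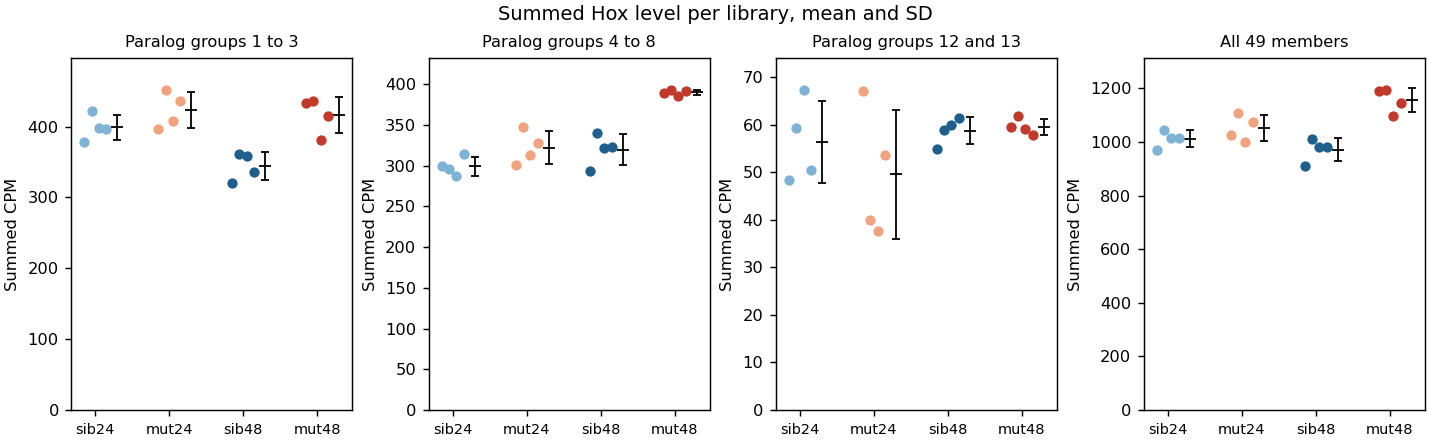
Summed CPM of Hox genes per library, with the mean and SD of each group of 4 beside the points, for paralog groups 1 to 3, 4 to 8, 12 and 13, and all 49 members; each vertical axis starts at 0. The mut48 libraries lie above the sib48 libraries in the sum of all members (1098 to 1194 against 910 to 1012 CPM) and overlap them in groups 12 and 13.

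None of the marker lists for tissues that express Hox genes had more than 1 call between genotypes at 48 hpf. With 2.84% of all tested genes called higher and 4.59% lower, lists of 8 to 17 genes would hold few calls. The counts therefore cannot show that these tissues were alike in both genotypes. Of 16 markers of spinal and hindbrain neurons 0 were called by edgeR and the median log2 fold change was 0.06. Of 11 tail bud, 11 fin bud and fin fold and 9 somite markers edgeR called 0 too, with medians of 0.08, 0.14 and 0.14. DESeq2 called 0 of each of these 4 lists, where it called 1027 of 24300 tested genes higher and 1486 lower. Among 8 pronephros markers 1 was higher, among 8 neural crest markers 1 was lower, and among 10 head markers 1 was lower, with medians of 0.16, 0.19 and -0.12. Of the 17 yolk syncytial layer markers 1 was called lower, with a median of -0.46. The median of all tested genes was -0.04. At an unadjusted p under 0.05, 2 tail bud, 1 fin, 2 somite and 3 pronephros markers were higher and 0 lower. Of the neuron markers 1 was higher and 1 lower at that limit, and of the neural crest markers 2 and 1. Of the head markers 0 were higher and 3 lower, and of the yolk markers 1 and 2. That limit was reached by 8.36% of all tested genes as higher and 13.7% as lower. Log2 fold changes were above 0 in 10 of 16 neuron, 7 of 11 tail bud, 8 of 11 fin and 7 of 9 somite markers. They were above 0 in 7 of 8 pronephros, 6 of 8 neural crest, 3 of 10 head and 5 of 17 yolk markers. The part of tissue make-up in the Hox values was not tested. With the yolk marker score as a covariate 9 Hox genes were called higher and 0 lower. In that fit 965 of 24300 tested genes were called higher and 1219 lower.

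A chromosome shared with the mutated gene is also a measured fact of the design. Gene order was read from a RefSeq table of another assembly, GRCz12tu, and not from the build of the counts. There the hoxbb cluster lies on the chromosome of lipf, with 194 to 197 protein-coding genes between. None of the other clusters shares a chromosome with lipf or pla2g15. The 4 genes of hoxbb had a median log2 fold change of 0.34 at 48 hpf and 0.18 at 24 hpf. Without them, 8 of 45 Hox genes were called higher at 48 hpf, 39 of 45 were above 0 and the median was 0.26. Whether DNA variants linked to the lipf allele had a part in the values of hoxbb was not tested.

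The interaction test in edgeR, which asks whether the difference between genotypes changed with age, called 0 Hox genes, where 1% of all tested genes were called. At an unadjusted p under 0.05 there were 8 members, where 16% of all tested genes reached that limit. All 8 had an interaction above 0, and 0 members reached the limit below 0. Over all 24300 tested genes 1556 reached it above 0 and 2328 below 0. DESeq2 called 2 members higher and 0 lower, where it called 472 and 439 of 24300 tested genes. The median of the interaction was 0.22 on the log2 scale, with 44 of 49 members above 0, against -0.03 and 46.2% of all tested genes. Without the 4 libraries lowest in yolk markers the median was 0.31, with 45 of 49 members above 0, against 0.04 in all tested genes. In the main edgeR fit the smallest p was that of hoxd9a. It had 19.8, 21.1, 22.5 and 19.99 CPM in sib24 and 17.2, 19.4, 18.2 and 18.7 CPM in mut24. It was thus below siblings at 24 hpf and above them at 48 hpf, without overlap at either age (interaction 0.52, SE 0.13, edgeR adjusted p = 0.0608). The difference at 24 hpf was not called (log2 fold change -0.18, edgeR adjusted p = 0.396). Next by p in the interaction came hoxd10a and hoxc6b, at 0.59 and 0.45 (edgeR adjusted p = 0.111 for both).

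The genes known to switch Hox genes on and off were read from the same fit. Of 26 tested regulators, which cover Cdx factors, retinoic acid enzymes and receptors and hindbrain and tail signals, 1 was higher and 0 lower in mutants at 24 hpf, and 5 were higher and 0 lower at 48 hpf. Of all tested genes 0.391% were called higher and 0.44% lower at 24 hpf, and 2.84% and 4.59% at 48 hpf. The one at 24 hpf was cyp26a1, an enzyme that degrades retinoic acid. It had 15.2, 15.8, 14.6 and 19.3 CPM in sib24 and 28.5, 24.8, 33.3 and 30.1 CPM in mut24, without overlap (log2 fold change 0.85, SE 0.13, edgeR adjusted p = 0.00740). At 48 hpf it had 17.0, 18.0, 21.6 and 18.1 CPM in sib48 and 23.9, 30.9, 20.2 and 26.8 CPM in mut48, with replicate 3 of mut48 inside the sibling range (log2 fold change 0.44, edgeR adjusted p = 0.0478). This gene, too, lies on the chromosome of lipf, with 145 protein-coding genes between.

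The smallest p at 48 hpf was that of cdx4, a caudal-type homeobox gene that activates posterior Hox genes. It had 0.58, 0.79, 0.67 and 0.65 CPM in sib48 and 2.01, 1.27, 1.101 and 1.3 CPM in mut48. Levels at this age were low but the groups did not overlap (log2 fold change 1.07, SE 0.17, edgeR adjusted p = 0.00140). With age it fell by 5.23 on the log2 scale in siblings. Also higher in mutants were the retinoid receptor gene rxraa (log2 fold change 0.35, edgeR adjusted p = 0.0100) and 2 further enzymes that degrade retinoic acid, cyp26c1 (0.52, edgeR adjusted p = 0.0177) and cyp26b1 (0.39, edgeR adjusted p = 0.0440). The values of cyp26a1 and cyp26b1 at 48 hpf fell outside the naming rule and were chosen after they were seen. Other regulators were lower without a call. The retinoic acid synthesis gene aldh1a2 had 45.2, 45.5, 50.3 and 52.3 CPM in sib48 and 38.7, 43.8, 43.5 and 34.4 CPM in mut48, without overlap (log2 fold change -0.27, SE 0.09, edgeR adjusted p = 0.0635). The caudal gene cdx1b had 3.78, 2.57, 2.08 and 2.65 CPM in sib48 and 1.05, 1.40, 2.03 and 1.54 CPM in mut48, also without overlap (log2 fold change -0.88, SE 0.52, edgeR adjusted p = 0.353). Of the 26 regulators the mutant libraries lay above all siblings at 48 hpf in 4 and below them in 3. That held for 5.7% and 8.46% of all tested genes. These values, too, were chosen after they were seen. With age, 4 of the 26 regulators rose and 16 fell in siblings, where 34.1% of all tested genes rose and 29.2% fell. Among those that fell was egr2b, the hindbrain segment gene known as krox20 (log2 fold change -4.00).

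Hox proteins bind DNA with cofactors of the Pbx, Meis and Pknox families. The list read here holds 15 genes: members of these families and tgif1, which belongs to none of them. None of the 15 was called between genotypes at either age by edgeR, and DESeq2 called 0 at both. Of 24300 tested genes DESeq2 called 373 higher and 449 lower at 24 hpf, and 1027 and 1486 at 48 hpf. At 24 hpf 5 of the 15 reached an unadjusted p under 0.05, 4 higher and 1 lower in mutants. Of all tested genes 13.7% reached that limit. At 48 hpf 2 reached it as higher and 0 as lower, against 8.36% and 13.7% of all tested genes. With age 9 of the 15 rose and 5 fell in siblings, where 34.1% of all tested genes rose and 29.2% fell. Among them pbx3b and pbx1a rose by 3.10 and 2.55 on the log2 scale. The Polycomb and Trithorax groups hold Hox genes off or on through chromatin. Of 29 such genes 0 were higher and 2 lower in mutants at 24 hpf, and 4 were higher and 3 lower at 48 hpf. The shares of all tested genes were 0.391% and 0.44% at 24 hpf, and 2.84% and 4.59% at 48 hpf. The 2 enzymes that methylate histone H3 in Polycomb complexes parted: ezh1 had 4.92, 3.81, 4.39 and 4.49 CPM in sib48 and 8.26, 9.72, 12.1 and 9.06 CPM in mut48, and ezh2 had 96.4, 87.3, 98.0 and 86.5 CPM and 67.3, 62.6, 75.6 and 74.4 CPM. Neither overlapped, at log2 fold changes of 1.15 (edgeR adjusted p = 0.000406) and -0.40 (edgeR adjusted p = 0.00549). The Polycomb reader gene cbx2 was higher at 0.55 (edgeR adjusted p = 0.00135). The calls of ezh1, ezh2 and cbx2 held in all 15 alternative fits. Those of suz12a, mtf2, cbx7a and jarid2b at 48 hpf, named after their values were seen, were lost in 13, 11, 7 and 2 of them. The calls of suz12b and mtf2 at 24 hpf were lost in 9 of 15 each.

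Genes beside the clusters and relatives outside them gave the surroundings. Of 40 tested genes among the 3 nearest on each side of a cluster, 0 were called between genotypes at 24 hpf by edgeR. At that age 4 reached an unadjusted p under 0.05, against 13.7% of all tested genes. DESeq2 called 1 of these neighbours higher and 1 lower, where it called 373 and 449 of 24300 tested genes. At 48 hpf 1 was higher and 4 lower, against 2.84% and 4.59% of all tested genes, with a median log2 fold change of -0.06. The smallest p of these neighbours at 48 hpf was that of nbr1a, an autophagy receptor gene beside hoxbb, higher at 0.45 (edgeR adjusted p = 0.00634). On the same side of hoxbb psme3 was lower at -0.40 (edgeR adjusted p = 0.0211), a value chosen after it was seen. Like hoxbb, both lie on the chromosome of lipf, with 200 and 199 protein-coding genes between. The mitochondrial gene atp5mc1 beside hoxba was lower at -0.44 (edgeR adjusted p = 0.0112). Among 9 Evx and ParaHox genes, which descend from the same ancestral homeobox genes as the clusters, 1 was called between genotypes at 48 hpf, cdx4. With age, evx2, which adjoins the hoxda cluster and acts in spinal interneurons, rose from 3.60, 3.14, 3.38 and 2.40 CPM in sib24 to 34.6, 30.3, 33.3 and 31.7 CPM in sib48 (log2 fold change 3.37, edgeR adjusted p = 1.63e-13). No Hox gene of its cluster came near that, the highest being hoxd11a at 0.62.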

How the data were processed

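The deposited table held whole-number read counts per gene, 1 column per library, which the authors had not normalised, as its values show. Per the submitters' processing notes, the tools were STAR 2.7.10b, featureCounts 2.0.6, Trim Galore 0.6.10 and FastQC 0.12.1, and the genome build was GRCz11. No source used here gives the annotation, the strand setting or the treatment of reads with several locations. Per the labels' protocols, libraries were built with a VAHTS Universal V8 kit from total RNA isolated by TRIzol. Intervals over counts would cover counting error only, since no molecular identifiers are named, and the spread between libraries served as the error.

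Genes were kept by filterByExpr with the 4 groups (24300 tested, 11809 removed) and scaled by TMM. The two-sided test was edgeR's quasi-likelihood F-test (edgeR 4.0.16, R 4.3.3), with 1 mean per group over all 16 libraries and no covariate. Its contrasts were genotype at each age, age within each genotype, and the interaction, with Benjamini-Hochberg adjustment over all tested genes. Summed levels and ratios of copies were described without a test. Mean log2 CPM of markers used a prior count of 2. Alternatives were RLE and upper-quartile scaling, the library total for levels, DESeq2 1.42.0, each library left out in turn, the replicate number as a block, a fit of just the groups compared, no filter, and a minimum of 1 CPM in 4 libraries. Libraries of a group were distinct: none were identical, and their counts differed by more than sampling noise.

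The members and lists were chosen with earlier results of these data known. Values are given for members called or with an unadjusted p under 0.05 between genotypes, the 3 smallest p of the interaction, the 5 largest rises and falls with age, the smallest p with age per paralog group, and from each companion list up to 3 called genes per genotype contrast and 2 with age. Of the marker entries, apoa4b.3, a1bg and lhx3 matched no symbol, and isl1a was matched as isl1. A RefSeq table of assembly GRCz12tu, on which all 49 members were found, gave gene order only.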

Additional observations from a re-analysis of the deposited data

Results flagged for a closer look

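In 13 of 196 groups of 4 libraries, 1 library of a Hox gene stood apart from the other 3 (Dixon's test at 95%, which flags about 1 in 20 groups by chance). In sib48, replicate 1 was low for hoxa3a (33.6 CPM), hoxb8a (44.9 CPM) and hoxb5b (25.6 CPM), replicate 3 was low for hoxc9a (17.4 CPM), and replicate 4 was high for hoxc6a (13.7 CPM) and hoxd9a (21.9 CPM). In mut48, replicate 3 was low for hoxa1a (2.67 CPM). In mut24, replicate 3 was low for hoxc3a (47.2 CPM) and hoxc9a (20.7 CPM), and replicate 1 was high for hoxd11a (7.37 CPM). In sib24, replicate 4 was high for hoxd11a (7.43 CPM) and low for hoxd12a (6.9999 CPM), and replicate 1 was high for hoxa4a (0.93 CPM).

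The genotype difference of hoxd9a had opposite signs at the ages: every mutant library lay below the siblings at 24 hpf (17.2 to 19.4 against 19.8 to 22.5 CPM) and above them at 48 hpf (21.99 to 26.3 against 17.3 to 21.9 CPM). At 24 hpf hoxd9a was not called (log2 fold change -0.18, edgeR adjusted p = 0.396). All mutant libraries lay below all siblings at that age in 1 of 49 members and above them in 3. That held for 1056 and 1014 of 24300 tested genes. The interaction test of hoxd9a gave 0.52 on the log2 scale (edgeR adjusted p = 0.0608). Over its alternatives the adjusted p ran from 0.00712 to 0.122, under 0.05 in 4 of 22.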

How the results depend on the processing

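No Hox gene named for a contrast by the naming rule changed sign in it under any alternative. The signs of the other members were not checked singly. At 48 hpf the number higher in mutants was 11 and became 5 with the replicate number as a block, 7 with only the groups compared and 3 to 7 when 1 library was left out; 0 were lower each time. RLE scaling gave 10, upper-quartile scaling 12, no filter 9, the stricter filter 12 and DESeq2 15, with 42 to 46 members above 0. Of all genes tested at 48 hpf, 691 were called higher and 1115 lower in the main fit. They were 526 and 802 with the block, and 711 and 482 with only the groups compared. RLE scaling gave 681 and 930, upper-quartile scaling 819 and 746 and no filter 704 and 573. The stricter filter gave 772 and 1126, and DESeq2 1027 and 1486. For the interaction 0 became 1 with upper-quartile scaling and with the stricter filter, 2 with DESeq2 (hoxd9a and hoxd10a), 0 with the block and 0 to 1 when 1 library was left out, where the 1 was hoxd9a without replicate 4 of sib48. The cause was not tested. Over all tested genes the interaction gave 118 higher and 126 lower in the main fit. Upper-quartile scaling gave 148 and 77 there, and the stricter filter 151 and 151. At 24 hpf the number of Hox genes called between genotypes stayed at 0, the block included. Over these alternatives 22 to 373 of all tested genes were called higher at that age and 40 to 449 lower. With age in siblings 12 to 13 rose and 9 to 16 fell when 1 library was left out, and in mutants 16 to 18 rose and 5 to 8 fell; with the block they were 14, 12, 17 and 6. In siblings RLE scaling gave 12 and 17 and DESeq2 13 and 17. Over all tested genes 7734 to 8113 rose and 6693 to 7075 fell in siblings when 1 library was left out. In mutants 7798 to 8128 rose and 7058 to 7195 fell. With the block they were 8194, 6959, 8190 and 7261. In siblings RLE scaling gave 8042 and 7388 over all tested genes, and DESeq2 8154 and 7528. Same-numbered libraries did not deviate together (median correlation 0.005, -0.11 to 0.20, over 0.1 in 2 of 24 pairs, own number best in 4 libraries), so the numbers were not used as pairs.

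The summed Hox level without scaling factors was 980 CPM in sib24 and 1217 CPM in mut48. Leaving out 1 library gave 1001 to 1026 CPM in sib24, 1034 to 1070 in mut24, 956 to 990 in sib48 and 1145 to 1176 in mut48. Calls of cyp26c1, cyp26a1 and cyp26b1 at 48 hpf were lost in 3, 9 and 8 of 15 alternatives, that of cdx4 in 1. Depth limits hoxa4a and hoxb1a most, with lowest counts of 14 and 16.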
